A study of Mus musculus with 27 samples.

Results

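The sites described here are 2014 positions in the genome of mouse erythroleukaemia (MEL) cells with a ChIP-Seq peak of the co-repressor IRF2BP2. The deposited list classes them as IRF2BP2-only, and an ETO2 site lies no more than 10 kb away (near sites). They were chosen by their class in the deposited site list and by the distance between peak centres. They make up 23.0% of the 8739 IRF2BP2-only sites, and the other 6725 (far sites) lay more than 10 kb from every ETO2 site. The whole list holds 13229 sites, of which 1760 were bound by ETO2 alone and 2730 by both proteins (shared sites). Distances, fold enrichments and the class of the nearest ETO2 site are the values that selected the near sites, or come from the same ChIP-Seq contrast, and are given as a description without a test.

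ETO2, encoded by *Cbfa2t3*, is a co-repressor that does not bind DNA itself. It is brought to chromatin by the LDB1 complex, in which GATA1 and TAL1 recognize a composite of an E-box and a GATA motif, and it holds late erythroid genes at a low level until progenitors differentiate. IRF2BP2 is a zinc-finger and RING-finger co-repressor, found as a partner of the transcription factor IRF2, and the study asked how it works together with ETO2 in erythroid progenitors. MEL cells are a virus-transformed erythroid progenitor line that matures towards red cells when induced.

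The site list rests on 1 IRF2BP2 library (a custom rat antibody, with normal rat IgG as its control) and 1 ETO2 library that the study took from earlier work, so each site has a single value and no replicate. RNA-Seq was made in MEL cells carrying an shRNA against *Irf2bp2* (hairpin sh1, 2 libraries), *Cbfa2t3* (hairpins sh2 and sh3, 2 libraries each) or *Kdm1a* (2 libraries), which encodes the histone demethylase LSD1, in cells given siRNA against *Gfi1b* (2 libraries), and in induced and non-induced MEL cells without a knockdown (2 libraries each). The controls carried non-targeting shRNA or siRNA (labelled WT, 2 libraries each, 1 for *Kdm1a*). The inducing agent is not given in the labels. The shRNA libraries held between 44519414 and 57684583 counted reads and the *Gfi1b* and induction libraries between 9929311 and 19623105. The study's methods describe the RNA-Seq replicates as independent biological samples. In bulk RNA, fewer cells of a kind and less RNA per cell cannot be told apart.

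The targeted genes were checked in each library. *Irf2bp2* itself stood at 116 and 120 CPM (reads of a gene scaled to a common library size) in the control libraries and at 92.2 and 94.9 in the *Irf2bp2* KD libraries, a log2 fold change of -0.33 ± 0.08 (SE, n = 2 and 2, edgeR adjusted p = 0.00266), so that its mRNA was lowered by less than the limit of 0.5 used for calls here. The paper checked its shRNA knockdowns by qPCR or western blot, and protein levels cannot be read from these counts. *Cbfa2t3* was at 400 and 427 CPM in its controls and between 123 and 244 in the 4 KD libraries. *Kdm1a* was at 152 CPM in its control and at 16.9 and 16.3 in its KD libraries. The library labelled *Gfi1b* KD replicate 1 goes against its label, with 216 CPM of *Gfi1b* against 122 and 145 in the controls and 76.5 in the library labelled *Gfi1b* KD replicate 2. All 8 erythroid marker genes looked up were measured (*Alas2*, *Epor*, *Gata1*, *Klf1*, *Nfe2*, *Tal1*, *Tfrc* and the joint *Hbb-b2* and *Hbb-bt* row). None of the 6 myeloid ones passed the filter on low counts. The summed level of the erythroid markers was between 2121 and 2782 CPM in the controls of *Irf2bp2* KD and between 7607 and 8268 in its KD libraries, and it moved from between 2657 and 2675 to between 3585 and 4729 CPM in *Cbfa2t3* KD and from between 2086 and 2157 to between 6444 and 7696 on induction. The summed level of 4 megakaryocyte markers was 400 to 412 CPM in the controls of *Cbfa2t3* KD and 474 to 587 in its KD libraries. In *Gfi1b* KD 3 of them passed the filter, at 221 to 284 CPM in the controls and 172 to 883 in the KD libraries. The sums for *Irf2bp2* KD and induction are given below. The part of these shifts in the results on genes was not tested.

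How the sequence of a near site compares with that of its ETO2 site can be read in 4 pairs, chosen after the values were seen as the most enriched near site of a gene list that lacked the composite motif, outside exons, and whose nearest ETO2 site held it. The sequences are the plus strand of mm9, 100 bases to either side of each centre. The pairs lie at *Epb4.9*, a protein of the red cell membrane skeleton (chr14:71026899-71027099 for the near site and chr14:71023724-71023924 for the ETO2 site, both in an intron), upstream of *Irf2bp2* (chr8:129118504-129118704 and chr8:129122225-129122425), upstream of *Nfe2*, an erythroid leucine zipper factor (chr15:103090475-103090675 and chr15:103088967-103089167), and in an intron of *Cflar*, an inhibitor of death-receptor signalling (chr1:58769425-58769625 and chr1:58773236-58773436). Capitals mark the composite motif (CTG, 6 to 8 bases of any kind, then the short GATA motif), the short GATA motif and the E-box CAGCTG, on either strand. The short GATA motif was searched in these spellings: the letters AGATAA were the usual one, with AGATAG counted as well, and the same was done for the letters TGATAA, for which also the spelling TGATAG was counted. The short GATA motif is part of the composite motif.
Epb4.9 near site: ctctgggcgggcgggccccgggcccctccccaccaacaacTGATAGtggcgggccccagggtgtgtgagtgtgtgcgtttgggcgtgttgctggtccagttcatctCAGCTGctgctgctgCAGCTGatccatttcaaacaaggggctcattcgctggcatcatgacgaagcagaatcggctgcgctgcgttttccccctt
Epb4.9 ETO2 site: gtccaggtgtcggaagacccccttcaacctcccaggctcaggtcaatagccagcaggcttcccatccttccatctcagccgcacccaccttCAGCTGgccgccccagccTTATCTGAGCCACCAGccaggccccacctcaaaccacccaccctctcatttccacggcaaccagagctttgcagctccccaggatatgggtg
Irf2bp2 near site: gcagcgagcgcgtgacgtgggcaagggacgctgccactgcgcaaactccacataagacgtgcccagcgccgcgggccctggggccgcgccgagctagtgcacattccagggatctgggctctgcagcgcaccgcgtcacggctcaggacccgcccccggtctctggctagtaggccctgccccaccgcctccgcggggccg
Irf2bp2 ETO2 site: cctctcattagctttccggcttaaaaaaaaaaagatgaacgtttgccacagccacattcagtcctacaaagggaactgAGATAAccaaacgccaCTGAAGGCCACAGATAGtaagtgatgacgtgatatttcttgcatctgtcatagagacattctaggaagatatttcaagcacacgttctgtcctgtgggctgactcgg
Nfe2 near site: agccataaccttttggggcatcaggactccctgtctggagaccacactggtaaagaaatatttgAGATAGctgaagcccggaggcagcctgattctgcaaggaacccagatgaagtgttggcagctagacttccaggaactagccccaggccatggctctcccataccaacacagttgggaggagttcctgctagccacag
Nfe2 ETO2 site: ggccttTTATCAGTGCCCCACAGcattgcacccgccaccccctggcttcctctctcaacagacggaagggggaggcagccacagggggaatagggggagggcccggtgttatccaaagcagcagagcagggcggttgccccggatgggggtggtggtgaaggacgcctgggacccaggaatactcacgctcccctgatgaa
Cflar near site: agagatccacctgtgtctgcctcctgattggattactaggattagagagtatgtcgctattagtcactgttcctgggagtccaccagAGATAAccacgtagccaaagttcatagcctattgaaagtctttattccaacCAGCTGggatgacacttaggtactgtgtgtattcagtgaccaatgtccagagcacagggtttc
Cflar ETO2 site: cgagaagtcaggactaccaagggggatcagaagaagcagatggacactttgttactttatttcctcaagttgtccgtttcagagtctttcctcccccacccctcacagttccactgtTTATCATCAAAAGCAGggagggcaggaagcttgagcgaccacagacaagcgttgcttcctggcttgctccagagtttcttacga

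The centres of these pairs are 1508 bp apart at *Nfe2*, 3175 at *Epb4.9*, 3721 at *Irf2bp2* and 3811 at *Cflar*. The *Irf2bp2* near site holds none of the motifs marked. The near sites of *Epb4.9*, *Nfe2* and *Cflar* hold 1 short GATA motif each, and those of *Epb4.9* and *Cflar* also the E-box. The letters CCCGCCC of the SP/KLF motif, which are not marked, are in the near sites of *Irf2bp2* and *Epb4.9*.

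The 3 near sites with the highest fold enrichment over IgG are shown next, because they are the strongest examples of IRF2BP2 binding near but not at an ETO2 site. They lie 5219 bp upstream of *6530418L21Rik* (chr3:105502198-105502398), in an intron of *Kctd10* (chr5:114828212-114828412) and in an intron of *Ptp4a3* (chr15:73577314-73577514). None of them holds the composite motif, all of them hold the E-box, and the sites of *6530418L21Rik* and *Kctd10* hold the short GATA motif.
6530418L21Rik near site: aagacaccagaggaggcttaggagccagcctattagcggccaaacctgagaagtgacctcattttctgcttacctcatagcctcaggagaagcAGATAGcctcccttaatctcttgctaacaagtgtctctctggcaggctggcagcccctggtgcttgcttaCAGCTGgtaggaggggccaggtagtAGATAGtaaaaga
Kctd10 near site: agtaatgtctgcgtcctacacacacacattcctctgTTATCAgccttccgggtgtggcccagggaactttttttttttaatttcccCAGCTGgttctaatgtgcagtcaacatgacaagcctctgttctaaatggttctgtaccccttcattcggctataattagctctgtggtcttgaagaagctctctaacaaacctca
Ptp4a3 near site: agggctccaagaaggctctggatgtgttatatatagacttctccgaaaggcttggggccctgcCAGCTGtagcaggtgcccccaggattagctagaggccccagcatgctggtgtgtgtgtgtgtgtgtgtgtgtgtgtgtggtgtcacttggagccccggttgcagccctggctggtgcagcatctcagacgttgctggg

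The opposite case, near sites that did hold the composite motif, is shown by 4 sites of at least 10-fold enrichment with the motif nearest to the centre, 101 bases each. They lie upstream of *Ccr1l1* (chr9:123906471-123906571), in an intron of *Popdc2* (chr16:38373526-38373626), upstream of *Bzrap1* (chr11:87563747-87563847), and in an intron of *Tbxas1* with *Hipk2* as the nearest gene (chr6:38850257-38850357). Their composite motifs start from CTG with spacers of different sequence, and in the *Bzrap1* site the motif runs into the E-box. A site of this kind in an untranslated exon, next to *D830046C22Rik*, is named only.
Ccr1l1 near site: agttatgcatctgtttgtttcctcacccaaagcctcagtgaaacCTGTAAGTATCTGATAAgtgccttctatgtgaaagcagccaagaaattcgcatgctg
Popdc2 near site: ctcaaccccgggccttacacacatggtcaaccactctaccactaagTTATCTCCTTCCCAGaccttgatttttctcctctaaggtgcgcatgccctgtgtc
Bzrap1 near site: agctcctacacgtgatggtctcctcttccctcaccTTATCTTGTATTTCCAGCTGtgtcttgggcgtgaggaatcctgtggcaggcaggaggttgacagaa
Hipk2 near site: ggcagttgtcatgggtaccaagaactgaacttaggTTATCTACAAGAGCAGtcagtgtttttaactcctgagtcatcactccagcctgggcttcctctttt

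Within the 10 kb limit, near sites were more frequent at short distances from an ETO2 centre than at long ones. The closest lay 253 bp from an ETO2 centre, the median was 2797 bp (quartiles 1097 and 5795 bp) and the farthest was 9962 bp away. The limit itself sets them apart from far sites, whose median distance was 79918 bp. Of the near sites, 171 (8.49%) were within 500 bp, 461 (22.9%) within 1 kb and 1412 (70.1%) within 5 kb. The study joined peaks of both proteins whose regions overlapped within 250 bp of the centre, which leaves the space closest to an ETO2 centre empty of near sites. It then grouped the sites by their ChIP signal with K-means clustering. At the 10 kb limit the last sites inside lay at 9957, 9959 and 9962 bp, and the next ones outside at 10012, 10016 and 10016 bp. The 50 near sites closest to the limit had a median fold enrichment of 6.80, and the 50 far sites closest to it one of 5.93.

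**Figure D1:**
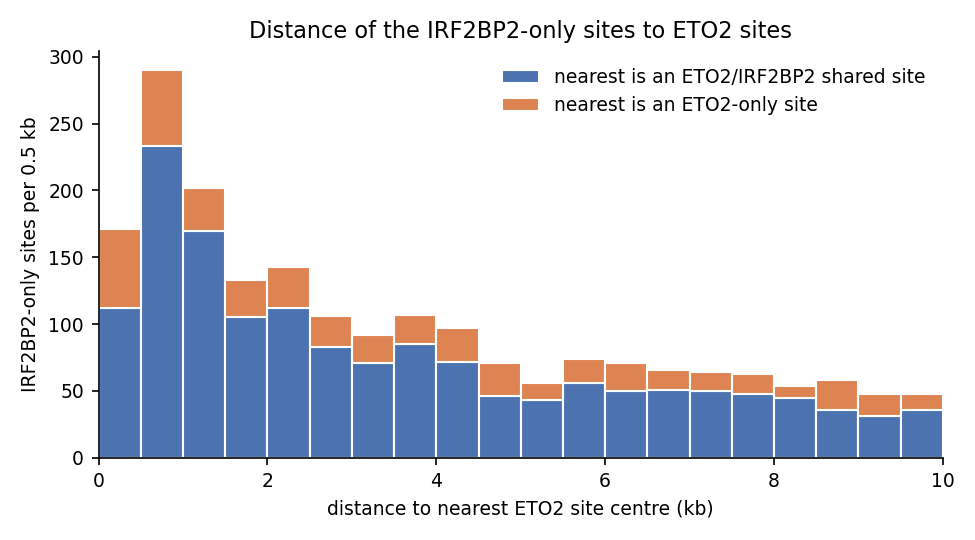
Number of IRF2BP2-only near sites per 0.5 kb of distance from the centre of the nearest ETO2 site in kb, stacked by whether that ETO2 site is a shared or an ETO2-only site. Below 2 kb lie 796 of the 2014 near sites, and shared sites are the nearest ones in 1535 of the 2014 cases.

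The nearest ETO2 site was a shared site for 1535 near sites (76.2%) and an ETO2-only site for 479 (23.8%). From the side of ETO2, 1140 of the 2730 shared sites (41.8%) and 418 of the 1760 ETO2-only sites (23.8%) had a near site within 10 kb. The 2014 near sites shared 1334 nearest ETO2 sites, of which 897 had 1 near site and 280 had 2, and the largest group was 8 near sites around a single shared site next to *Pdcd4*, 1432 to 9795 bp away from it. Neighbouring sites are thus not independent. The interval of 341 near sites (16.9%) touched or overlapped that of an ETO2-bound site, and 397 (19.7%) touched another IRF2BP2-only site, against 1077 far sites (16.0%) that touched another site.

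The fold enrichment over IgG had a median of 6.34 at near sites (lower quartile 4.67, range 2.11 to 71.0) and of 6.47 at far sites. Near sites of 10-fold enrichment or more numbered 459 (22.8%), against 1655 far sites (24.6%). The strongest near sites belonged to *6530418L21Rik* (71.0), *Kctd10* (53.0) and *Ptp4a3*, a tyrosine phosphatase (52.0). They were followed by sites at *Slc38a8* (48.0), the only one of the 10 with a composite motif, *Erg*, an ETS factor of blood stem cells (48.0), and *Itgb1bp1* (45). The remaining members of the top 10 were sites at *Tbc1d2b* (43.5), *Nfe2* (43.0), *Klf5* (42.0) and *Cdk17* (40.0). Of these 10 sites, 7 had a shared site as the nearest ETO2 site.

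Near sites took a middle place between far sites and ETO2 sites in their distance to genes. A transcription start site (TSS) of a protein-coding gene lay within 5 kb of 673 near sites (33.4%) and of 3066 far sites (45.6%), an odds ratio of 0.599 (95% interval 0.539 to 0.666, two-sided Fisher's exact test, p adjusted over 10 features = 1.79e-21). Within 1 kb the shares were 15.7 and 29.8%. For shared sites the share was 19.6% and for sites with ETO2 alone 17.3%. Among near sites the share was 21.6% at 250 to 500 bp from the ETO2 centre, 25.5% up to 1 kb, 32.8% up to 2 kb, 36.4% up to 5 kb and 37.9% up to 10 kb, and it was 42.2% between 10 and 50 kb and 47.5% beyond. The share thus went up with distance in every step. Near sites lie within 10 kb of an ETO2 site by the rule that chose them, and few ETO2 sites lie near a TSS. Their TSS share is therefore tied by position to that of ETO2 sites, which the test does not account for.

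**Figure D2:**
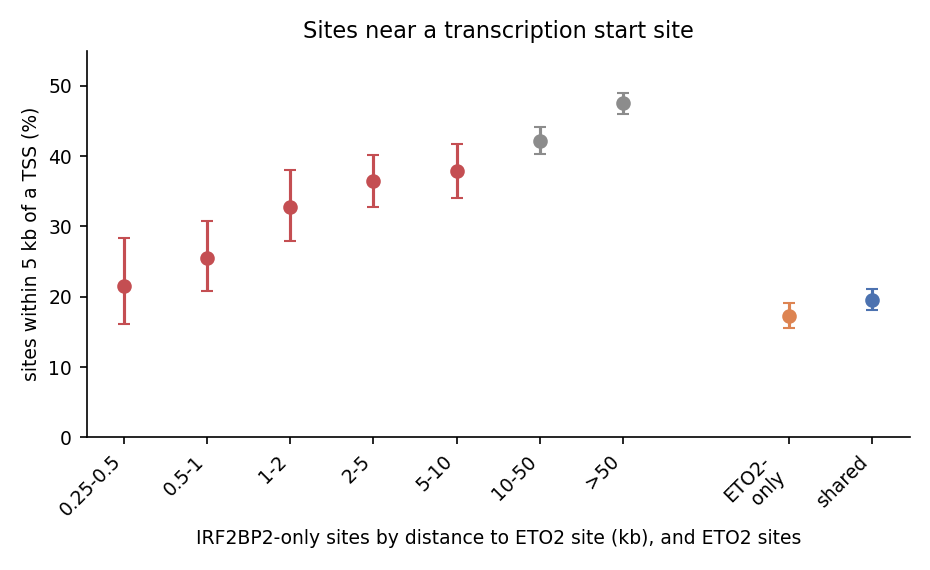
Share of sites with a TSS of a protein-coding gene within 5 kb, in percent, for IRF2BP2-only sites by distance to the nearest ETO2 site in kb (red for near and grey for far sites) and for ETO2-only and shared sites. Points are shares and bars 95% Wilson intervals, which cover counting error only. The share is 21.6% in the closest bin and 47.5% beyond 50 kb.

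By annotation, 46.6% of near sites were intergenic, 44.9% intronic, 5.61% in an untranslated exon and 1.64% in a coding exon, against 49.7, 37.9, 8.86 and 2.19% of far sites. The near site had the same nearest gene as its ETO2 site in 1883 cases (93.5%). It was the closer one to a TSS in 1159 pairs (57.5%). In 224 pairs (11.1%) the near site was within 5 kb of a TSS and its ETO2 site was not, and in 81 pairs (4.02%) it was the reverse. Both lay within 5 kb in 449 pairs (22.3%) and neither did in 1260 (62.6%). In the *Irf2bp2* pair printed above both sites lay within 5 kb and the near site was the closer one, 1268 bp upstream of the TSS against 4989 bp for the ETO2 site.

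The composite E-box/GATA motif, the motif bound by the LDB1 complex, was infrequent at IRF2BP2-only sites both near to and far from ETO2. It was found within 100 bp of the centre of 122 near sites (6.06%, 95% Wilson interval 5.10 to 7.19) and of 6.36% of far sites. The odds ratio was 0.949 (0.764 to 1.17, Fisher's exact test, adjusted p = 0.662), and the interval of the difference ran from -1.50 to 0.887 percentage points. The same letters were found at 32.7% of shared sites and 33.9% of the sites with ETO2 alone, and in 1.81% of windows of the same length 2 kb to either side of near sites. By distance, the share among near sites was 6.43% at 250 to 500 bp, 5.52% up to 1 kb, 6.57% up to 2 kb, 5.52% up to 5 kb and 6.48% up to 10 kb. Of the pairs of a near site and its ETO2 site, 570 had the motif at the ETO2 site only, 90 at the near site only, 32 at both and 1322 at neither. A near site held the motif in 5.32% of the pairs whose ETO2 site held it and in 6.37% of those whose ETO2 site did not.

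**Figure D3:**
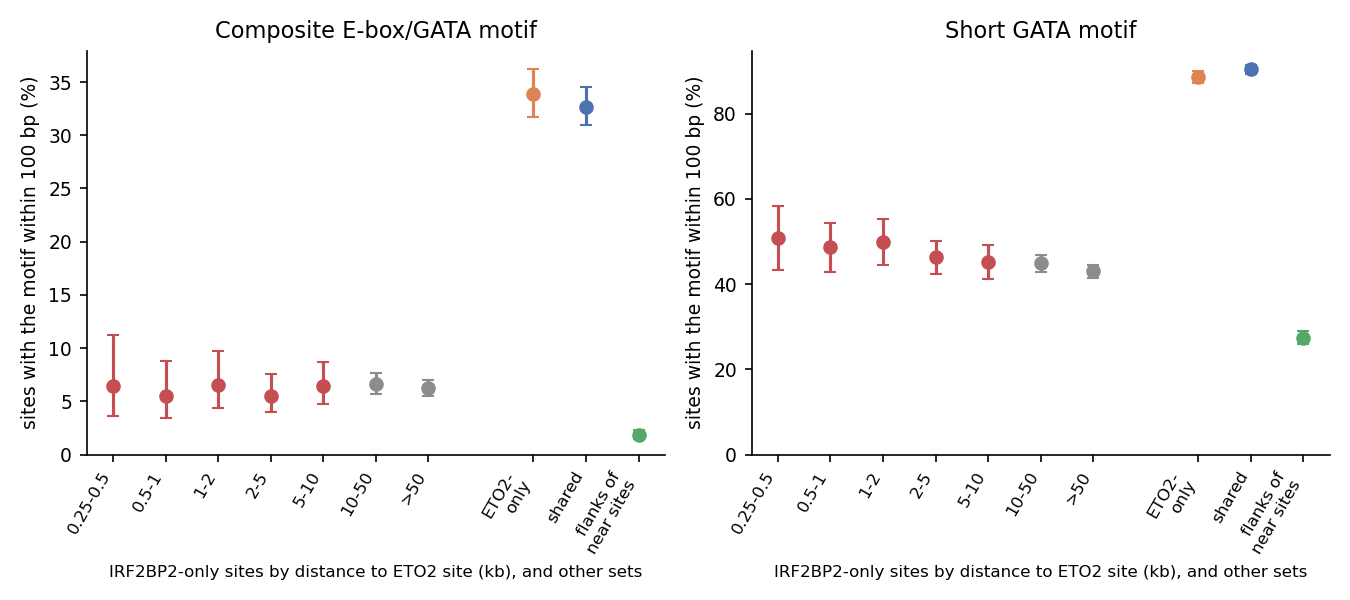
Share of sites, in percent, with the composite E-box/GATA motif (left) and with the short GATA motif (right) within 100 bp of the centre, for IRF2BP2-only sites by distance to the nearest ETO2 site in kb (red for near, grey for far sites), ETO2-only sites, shared sites and windows flanking the near sites. Points are shares and bars 95% Wilson intervals of counting error. In every distance bin the composite motif stays between 5.52 and 6.64%, against 33.9 and 32.7% at ETO2 sites.

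The short GATA motif, the letters that GATA1 recognizes, was present at 952 near sites (47.3%) and at 43.6% of far sites (odds ratio 1.16, 1.05 to 1.28, Fisher's exact test, adjusted p = 0.00841). Among shared sites 90.4% held it, among sites with ETO2 alone 88.7%, and among the flanking windows 27.4%. The E-box CAGCTG was present at 33.8% of near and 30.2% of far sites (1.18, adjusted p = 0.00771), with 26.8% in shared sites, 14.8% where ETO2 was alone and 10.0% in the flanks. Both shares were thus higher at near sites by under 4 percentage points. Within classes of TSS distance neither passed the test. Among sites over 5 kb from a TSS the GATA motif was at 53.5% of near and 53.9% of far sites (odds ratio 0.981, adjusted p = 0.810) and the E-box at 35.9 and 34.2% (adjusted p = 0.483). Among sites within 5 kb of a TSS the GATA motif was at 34.9 and 31.3% (odds ratio 1.18, 0.981 to 1.41, adjusted p = 0.207) and the E-box at 29.6 and 25.4% (1.23, 1.02 to 1.49, adjusted p = 0.132), with odds ratios no smaller than over all sites.

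Motifs of other factors were searched in the same way. The RUNX motif (TGTGGTT or TGTGGCT) was at 19.1% of near and 16.3% of far sites (odds ratio 1.21, Fisher's exact test, adjusted p = 0.00841) and in 10.6% of the flanks. The SP/KLF motif (CCCGCCC), common in promoters, was at 7.99 and 11% (0.702, adjusted p = 3.56e-04), with 2.51% in the flanks. Beyond 5 kb from a TSS the RUNX shares were 21.5 and 21.0% (adjusted p = 0.810) and the SP/KLF shares 4.55 and 5.79% (adjusted p = 0.275), and neither difference passed the test there. Within 5 kb of a TSS the RUNX motif was at 14.4 and 10.7% (odds ratio 1.41, 1.09 to 1.80, adjusted p = 0.0652) and the SP/KLF motif at 14.9 and 17.3% (0.837, adjusted p = 0.209). The AP-1 motif (TGAGTCA) was at 14.0 and 14.5% (0.960, adjusted p = 0.662), but beyond 5 kb from a TSS it was at 15.8% of near and 19.7% of far sites (0.767, adjusted p = 0.0164), and within 5 kb at 10.3 and 8.22% (1.28, 0.949 to 1.70, adjusted p = 0.207), the opposite direction. The ETS motif (CAGGAAG or CCGGAAG, 20.3 and 21.1%, odds ratio 0.836 to 1.07), the IRF motif (GAAA, any 2 bases, GAAA, 3.28 and 3.09%, 0.789 to 1.41) and the CTCF core (2.04 and 2.87%, 0.487 to 0.994, adjusted p = 0.0682) did not pass the test. Median GC content was 51.2% at near and 51.7% at far sites.

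The near sites had 1187 protein-coding genes as their single nearest gene within 1 Mb, and 1098 of these genes were also the nearest gene of an ETO2-bound site. A single near site fell to 741 genes and 256 genes had 2. The most near sites lay around *Zfp36l2*, which encodes an RNA-binding protein that shortens AU-rich mRNAs, with 17 sites of 2.94- to 10.5-fold enrichment. *Pdcd4*, a translation inhibitor, had 13, and *Cbfa2t3* and *Runx1*, a blood stem cell factor, had 10 each. *Max*, the partner of MYC, had 8, and *Pim1*, a kinase downstream of cytokine receptors, had 7. None of the near sites of *Zfp36l2*, *Cbfa2t3*, *Runx1* or *Max* held the composite motif, and 1 of the *Pdcd4* sites did. The genes of both co-repressors thus had near sites of their own: *Cbfa2t3* 10 of up to 8.33-fold and *Irf2bp2* 4 of up to 18-fold enrichment.

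The knockdowns ask whether genes next to near sites change when either co-repressor is lowered. In *Irf2bp2* KD, 948 of the 1187 genes passed the filter on low counts, and 190 of them (20.0%) were called higher and 130 (13.7%) lower at an adjusted p of 0.05 and a log2 fold change of 0.5, against 10.1 and 12.5% of all 12329 genes tested. Their median log2 fold change was 0.08, against -0.01 over all genes. Genes with an ETO2-bound site but no near site were called higher in 17.2% and lower in 14.3%, and genes with far sites alone in 8.07 and 13.5%. Of the 74 genes with a near site but no ETO2-bound site assigned to them, 18 were higher and 7 lower. Their near sites still have an ETO2 site within 10 kb, which was not assigned to these genes. The share called higher was 18.7% for genes with 1 near site, 21.1% with 2, 23.8% with 3 or 4 and 22.5% with 5 or more. In the same order, 13.1, 14.1, 13.1 and 22.5% were called lower. The 40 genes with 5 or more near sites had a median log2 fold change of -0.06. These shares are descriptions, since the genes were chosen with earlier results known, and no test compared them.

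**Figure D4:**
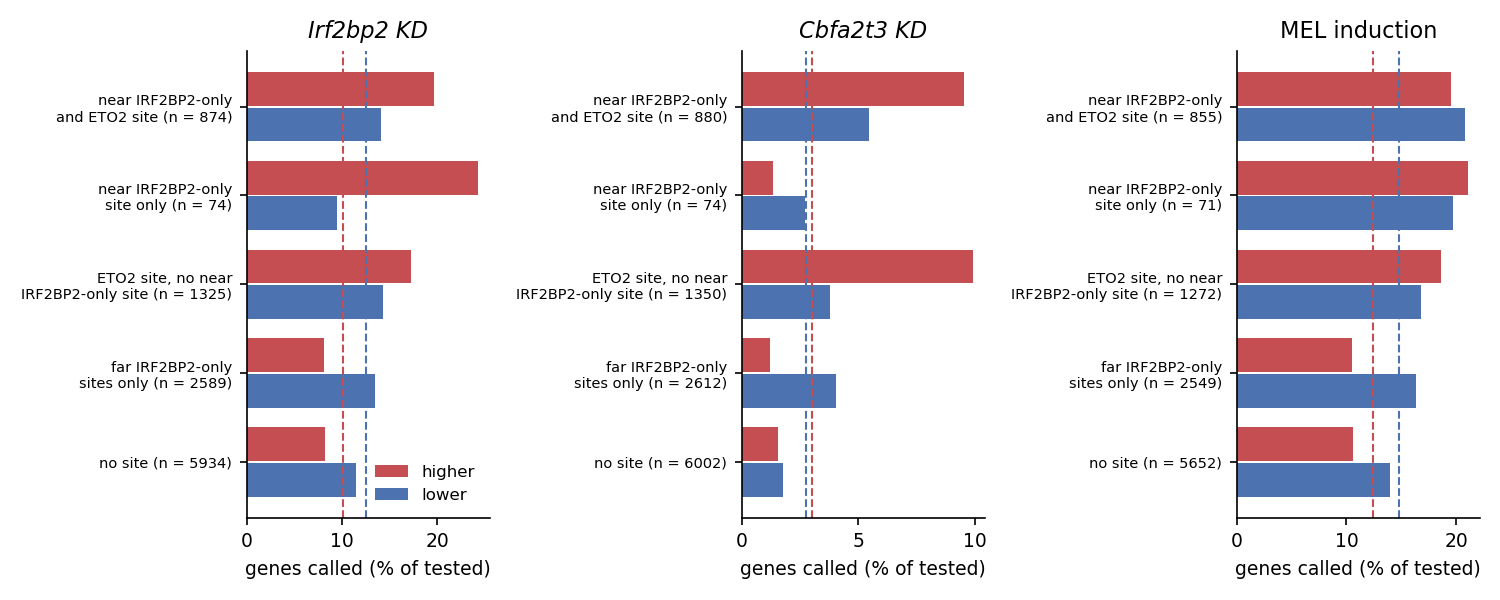
Share of genes called higher (red) or lower (blue), in percent of the genes tested, by the sites for which they are the nearest gene, in *Irf2bp2* KD, *Cbfa2t3* KD and induced MEL cells. Bars start at 0, dashed lines give the shares over all genes tested, and the horizontal scales differ between panels. In *Irf2bp2* KD the genes with near sites exceed the line for higher genes, at 19.7% with and 24.3% without an ETO2-bound site assigned to them. In *Cbfa2t3* KD the genes without an assigned one do not, at 1.35%. All near sites have an ETO2 site within 10 kb, also where it was not assigned to the same gene.

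In *Cbfa2t3* KD, 85 of 954 genes with near sites (8.91%) were called higher and 50 (5.24%) lower, against 2.99 and 2.75% of all 12537 genes. Genes with an ETO2-bound site and no near site were at 9.93 and 3.78%, and genes with far sites alone at 1.19 and 4.02%. Among the 74 genes with a near site but no ETO2-bound site assigned to them, 1 was higher and 2 lower. Without the library labelled Eto2 WT replicate 1, 34 genes with near sites (3.55%, against 1.05% of all genes) were higher and 27 (2.82%, against 1.14%) lower. Without replicate 2 it was 46 (4.79%, against 1.46%) and 31 (3.23%, against 1.36%). Of the 945 genes tested in both knockdowns, 318 were called in *Irf2bp2* KD and 133 in *Cbfa2t3* KD, and 90 in both, of which 58 were higher in both and 29 lower in both. These 90 are 28.3% of the genes called in *Irf2bp2* KD and 67.7% of those called in *Cbfa2t3* KD. For genes with an ETO2-bound site and no near site the shares were 30.1 and 70.2%, and over all genes of the annotation 17.5 and 66.5%.

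When MEL cells were induced, 182 of 926 genes with near sites (19.7%) were called higher and 192 (20.7%) lower, against 12.4 and 14.8% of all 11713 genes, with a median of -0.02 in both. Of the 40 genes with 5 or more near sites, 9 (22.5%) were higher and 13 (32.5%) lower. Without the library labelled MEL non-induced replicate 2, 109 (11.7%, against 5.94% of all genes) were higher and 114 (12.2%, against 6.52%) lower. Without non-induced replicate 1, 100 (10.7%, against 7.25%) were lower, and without induced replicate 2, 104 (11.1%, against 6.99%). *Kdm1a* KD has 1 control library and so no test. There, 152 of 952 genes (16.0%) were past a log2 difference of 0.5 upwards in both KD libraries and 112 (11.8%) downwards, against 13.1 and 9.80% of all genes. The erythroid marker sum was 2880 CPM in the *Kdm1a* control and 1706 and 1709 in its KD libraries, and its part was not tested. In *Gfi1b* KD, edgeR called 0 of 909 genes in either direction, against 0% of all 11190 genes, while 106 of the 909 had an unadjusted p under 0.05 (90 higher and 16 lower) against 784 of all genes, and DESeq2 called 9 (0.888%, against 0.246% of all genes) higher and 1 (0.0986%, against 0.0293%) lower. Without the library labelled *Gfi1b* KD replicate 1, edgeR called 47 (5.14%) higher and 12 (1.31%) lower, against 2.25 and 1.23% of all genes, and without the library labelled *Gfi1b* KD replicate 2 it called 217 (23.3%, against 14.6% of all genes) higher and 108 (11.6%, against 12.0%) lower. The erythroid marker sum was 1384 to 1508 CPM in the *Gfi1b* controls, 5844 in the library labelled KD replicate 1 and 1481 in replicate 2, and its part was not tested.

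The largest rise in *Irf2bp2* KD was that of *Mybpc3*, which encodes a myosin-binding protein of heart muscle. It was at 0.707 and 0.703 CPM in the controls and at 10.2 and 10.9 in the KD libraries (log2 fold change 3.90 ± 0.18, SE, n = 2 and 2, adjusted p = 5.76e-11). Its near site (6.0-fold) lies 5519 bp upstream of the TSS, in an intron of the neighbouring gene *Sfpi1*, which encodes the myeloid and lymphoid factor PU.1, and an ETO2-only site lies 672 bp inside *Mybpc3*. The KD libraries stood far above the controls here. *Acp5*, an acid phosphatase, was at 5.45 and 7.43 CPM in the controls and 67.9 and 78.4 in the KD (3.51 ± 0.13, adjusted p = 3.43e-12). Its near site is 525 bp downstream of the TSS, 640 bp from an ETO2-only site at the promoter.

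*Btg2*, an antiproliferative gene, was at 19.7 and 21.2 CPM in the controls and at 145 and 177 in *Irf2bp2* KD (log2 2.98 ± 0.10, adjusted p = 2.40e-12). It has 5 near sites between 14114 bp upstream and 1320 bp downstream of its TSS, with 37.5-fold enrichment at the strongest in its intron. Other large rises, beside that of the joint *Hbb-b2* and *Hbb-bt* row given with the globins, were *Mgst3*, a glutathione transferase (11.9 and 15 to 78.1 and 74.6 CPM), *Dhrs11*, a dehydrogenase (20.6 and 24.1 to 93.9 and 99.5 CPM), *Ppbp*, the precursor of a platelet chemokine (3.74 and 6.94 to 17.9 and 27.0 CPM), and *Omp* (0.0808 and 0.161 to 0.518 and 0.483 CPM). *Dhrs11* is the nearest gene of a single site in the list, a near site of 15.3-fold enrichment 108 bp upstream of its TSS. *Ppbp* likewise has a single site, a near site 2390 bp upstream. The summed level of 4 megakaryocyte markers was 365 to 416 CPM in these controls and 776 to 807 in the KD libraries, and its part in the rise of *Ppbp* was not tested. These genes were picked among those that passed the test with every KD library above every control, so neither trait is a result about them.

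The largest fall was that of *Vim*, the intermediate filament gene vimentin, which is lost as erythroid cells mature. It was at 203 and 179 CPM in the controls and at 15.6 and 11.7 in *Irf2bp2* KD (log2 -3.81 ± 0.12, adjusted p = 1.61e-12), and at 213 and 213 CPM in the controls and 26.6, 36.4, 18 and 20.5 in *Cbfa2t3* KD (-3.07 ± 0.22, adjusted p = 1.24e-04). A shared site lies 262 bp upstream of its TSS and 3 near sites follow within the gene at 452, 1180 and 1552 bp, of 11.3-, 7.0- and 6.25-fold enrichment, without GATA motif, composite motif or E-box. *Vim* thus fell in both knockdowns. *Fam198b* fell in both as well, from 51.4 and 45.6 to 12.2 and 10.2 CPM in *Irf2bp2* KD and from 37.9 and 31.4 to between 10.4 and 11.1 CPM in *Cbfa2t3* KD.

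*Bzrap1*, which encodes a RIM-binding protein, has 6 near sites in the stretch from 10246 to 795 bp upstream of its TSS, among them the composite site printed above. It fell from 11.5 and 10.8 CPM to 3.31 and 2.53 in *Irf2bp2* KD (log2 -1.94 ± 0.15, adjusted p = 3.13e-08). In *Cbfa2t3* KD its levels were 3.87 and 4.18 CPM in the controls and 5.56, 5.01, 3.77 and 4.81 in the KD libraries, and the groups overlapped. On induction it rose from 7.07 and 15.4 to 93.3 and 67.6 CPM. *Ikzf2*, an Ikaros family factor (22.7 and 19.6 to 5.41 and 4.70 CPM), *Lif*, a cytokine (6.59 and 6.90 to 2.16 and 1.51 CPM), *Slc45a3*, a transporter (53.1 and 54.6 to 16.0 and 13.3 CPM), and *Haao*, an enzyme of tryptophan breakdown (0.828 and 0.843 to 0.203 and 0.193 CPM), fell too. *Gm5420* was called lower on 35 counts over both controls and 8 over both KD libraries, with a ratio of 0.236 (0.0947 to 0.518, counting interval), and its call was lost with DESeq2, without either KD library and without the library labelled Irf2bp2 WT replicate 2.

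In *Cbfa2t3* KD, *Mybpc3* rose from 0.805 and 0.776 CPM to 5.66 and 5.03 with sh2 and 4.08 and 3.43 with sh3 (log2 2.52 ± 0.25, n = 2 and 4, adjusted p = 4.97e-04), and *Acp5* from 10.5 and 9.75 to 45.7, 38.7, 78.7 and 66.1 CPM (2.50 ± 0.29, adjusted p = 9.80e-04). Both genes thus rose in both knockdowns. *Hbb-y*, the embryonic beta-like globin, was near the detection floor and 7.81-fold higher in *Cbfa2t3* KD (counting interval 2.90 to 29.6). It has 3 near sites between 6049 and 9630 bp upstream, of up to 26.4-fold enrichment. *Vit*, a matrix protein, was 9.54-fold higher (3.10 to 47.7). *Col4a3*, a collagen chain, rose from 0.275 and 0.317 to between 0.811 and 2.29 CPM. The calls of *Hbb-y*, *Vit* and *Col4a3* were lost without either control library.

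*Parm1*, a mucin-like gene with near sites 205109 and 207925 bp downstream of its TSS, fell in *Cbfa2t3* KD from 36.8 and 40.4 to between 8.13 and 12.2 CPM (log2 -1.93 ± 0.13, adjusted p = 1.11e-04). *S100a4*, a calcium-binding protein with 2 near sites 949 and 1570 bp into the gene and a shared site at its start, fell there from 1.69 and 1.52 to between 0.202 and 0.550 CPM (-2.06 ± 0.30, adjusted p = 0.00309), a call lost without the library labelled Eto2 WT replicate 1. In *Irf2bp2* KD it rose, from 0.343 and 0.622 to 1.4 and 2.07 CPM (log2 1.85 ± 0.32, adjusted p = 1.61e-04), so that the direction was opposite in these knockdowns. *Cd180*, a receptor of B cells, fell from 1.12 and 1.20 to between 0.225 and 0.789 CPM with an adjusted p of 0.0459, which was lost in 5 of the 6 fits that left out a library and with a replicate block.

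Among the genes with near sites, haem and globin genes were among the 5 largest rises on induction. *Alad*, an enzyme of haem synthesis, was at 91.8 and 77.4 CPM before and 1504 and 1104 after induction (log2 3.94 ± 0.28, n = 2 and 2, adjusted p = 9.64e-07). *Mybpc3* went from 0.697 and 0.421 to 5.74 and 9.43 CPM and *Btg2* rose to 316 and 224 CPM (log2 3.36 ± 0.37, adjusted p = 5.37e-05). The adult beta-globin rows *Hbb-b2* and *Hbb-bt*, near-identical copies between which reads cannot be split with certainty, went from 130 and 171 to 3440 and 3004 CPM together. *Prelp*, a matrix proteoglycan at 0 counts before induction, was at least 12.0-fold higher, against a floor of 3 counts per library. *Muc13*, a mucin, fell from 191 and 211 to 9.47 and 5.53 CPM, and *Ppbp*, which had risen in *Irf2bp2* KD, fell to a ratio of 0.0309 (0.00831 to 0.0809), while the megakaryocyte marker sum went from between 376 and 518 to between 1158 and 1288 CPM. *Lilrb4*, an inhibitory receptor, and *Apoa1*, an apolipoprotein, were at 0 counts after induction, at least 12.4- and 9.27-fold lower. *Slc17a4*, a phosphate transporter, had a ratio of 0.0197 (4.89e-04 to 0.114). The calls of *Lilrb4* and *Apoa1* were each lost without 1 of the non-induced libraries, and that of *Slc17a4* without either.

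**Figure D5:**
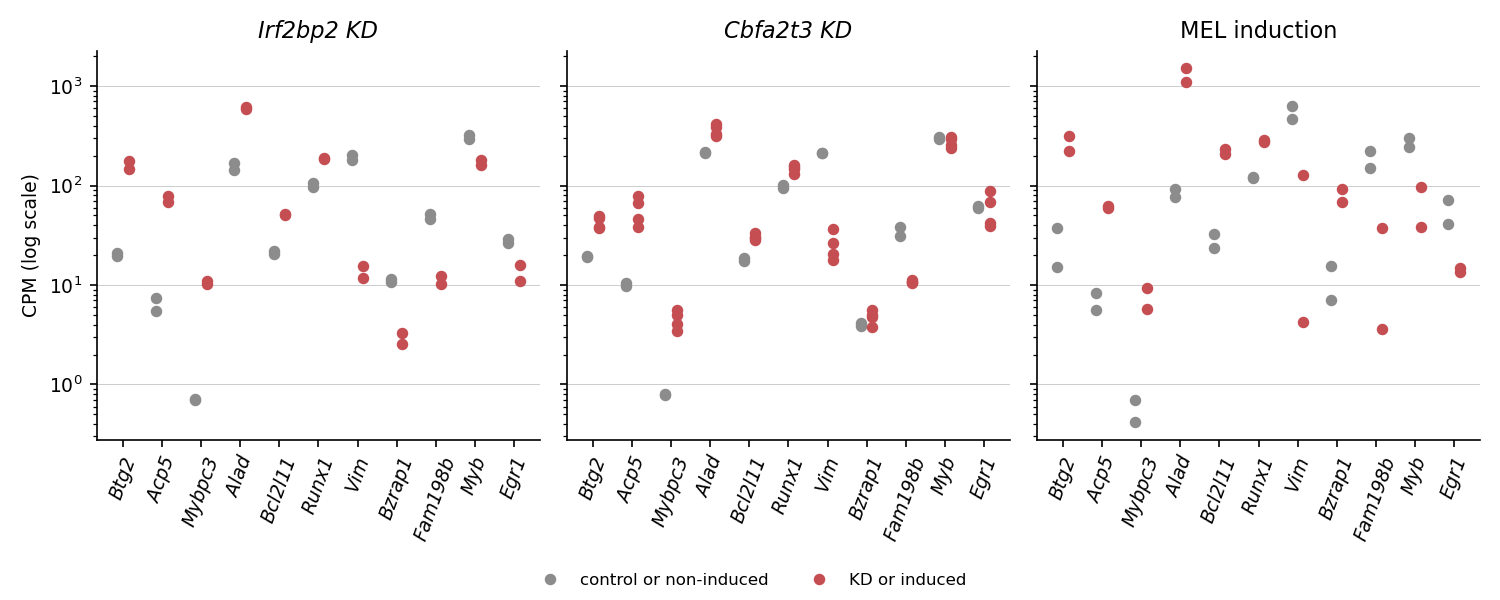
Level in each library, in CPM on a log scale, of 11 genes with near sites in *Irf2bp2* KD, *Cbfa2t3* KD and induced MEL cells, with 1 point per library, grey for control or non-induced and red for KD or induced cells. *Btg2*, *Acp5*, *Mybpc3*, *Alad*, *Bcl2l11* and *Runx1* are higher, and *Vim* and *Fam198b* lower, in every KD or induced library than in the controls of the same panel, and *Bzrap1* goes from 11.5 and 10.8 CPM down to 3.31 and 2.53 in *Irf2bp2* KD.

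The gene lists looked at follow the roles of the genes, and each list is given by counts beside the median over all genes (-0.01 in *Irf2bp2* KD, 0.00 in *Cbfa2t3* KD and -0.02 on induction). Haem synthesis had near sites at 4 of 14 genes, *Alad* and *Abcb10* among them, with 8 sites of 2.31- to 16.0-fold enrichment, none with a composite motif. In *Irf2bp2* KD all 4 rose, with a median log2 fold change of 1.55, and of the 10 haem genes without a near site 9 rose and 1 fell (median 1.12). *Alad* was at 142 and 167 CPM in the controls and 585 and 615 in the KD. In *Cbfa2t3* KD 3 of the 4 rose (median 0.83), as did 7 of the other 10 (0.94), and on induction 3 of the 4 and 8 of the other 10. *Abcb10*, a mitochondrial transporter, has the strongest site of the list, 7396 bp upstream of its TSS, and rose from 156 and 157 to 483 and 518 CPM in *Irf2bp2* KD and from 161 and 166 to between 268 and 342 CPM in *Cbfa2t3* KD. Most haem genes thus rose in *Irf2bp2* KD with and without a near site. The erythroid marker sum given above, which itself includes the haem gene *Alas2* and the beta-globin row, moved in the same direction.

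Of the red cell membrane and transporter genes, 4 of 23 had near sites (*Ank1*, *Epb4.1*, *Epb4.9* and *Slc2a1*), and 3 of these were measured. *Ank1*, the membrane adaptor ankyrin, rose in *Irf2bp2* KD from 258 and 265 to 672 and 625 CPM and on induction from 136 and 167 to 548 and 456 CPM. *Epb4.1* rose in *Irf2bp2* KD from 327 and 284 to 476 and 506 CPM. *Slc2a1*, a glucose transporter, fell there from 77.0 and 73.8 to 35.1 and 42.9 CPM, rose in *Cbfa2t3* KD from 48.5 and 55.6 to between 63.6 and 85.6 CPM, and fell on induction. Without a near site, 12 of 17 measured genes of the list rose in *Irf2bp2* KD and none fell. The globin loci had near sites at *Hbb-b2* and *Hbb-y*, 3 each, and 3 of these 6 held the composite motif. The joint *Hbb-b2* and *Hbb-bt* row rose in *Irf2bp2* KD from 841 and 1438 to 4237 and 4675 CPM, and in *Cbfa2t3* KD from 1082 and 1091 to between 1443 and 2261 CPM.

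The LDB1 complex and its partner factors had near sites at 9 of 22 genes (*Cbfa2t3*, *Gata2*, *Gfi1b*, *Irf2bp2*, *Lmo2*, *Ncor1*, *Runx1*, *Ssbp2* and *Zfpm1*), 36 sites in all, of which 2 held the composite motif. In *Irf2bp2* KD 3 of the 9 rose and none fell, and of the 13 genes of the list without near sites 4 rose and 3 fell. *Runx1* rose from 95.6 and 107 to 185 and 187 CPM, *Zfpm1*, the GATA1 cofactor FOG1, from 436 and 510 to 815 and 824 CPM, and *Gata2* from 7.39 and 7.59 to 10.3 and 11.1 CPM. *Runx1* also rose in *Cbfa2t3* KD (94.9 and 102 to between 130 and 160 CPM) and on induction (121 and 118 to 288 and 277 CPM). *Cbfa2t3*, with 10 near sites, was at 275 and 279 CPM in the controls and 280 and 250 in *Irf2bp2* KD (log2 -0.06 ± 0.09), and *Irf2bp2* was at 109 and 121 against 111 to 136 CPM in *Cbfa2t3* KD (0.06 ± 0.09), so that neither passed the test when the other was lowered. On induction 5 of the 9 rose (*Runx1*, *Zfpm1*, *Ssbp2*, *Gfi1b* and *Ncor1*, with log2 fold changes of 0.76 to 1.24), and *Lmo2*, a bridging protein of the complex, fell from 316 and 281 to 123 and 83.3 CPM. Of the 13 without near sites 3 rose and none fell on induction, and of all genes 12.4 and 14.8%.

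Progenitor and oncogenic factors had near sites at 13 of 27 genes, with 31 sites of 2.88- to 48.0-fold enrichment and 2 composite motifs, and 12 of these genes were measured. In *Irf2bp2* KD 3 rose and 4 fell. *Junb*, an AP-1 subunit, rose from 37.9 and 36.9 to 85.4 and 88.5 CPM, and *Nfe2* and *Lyl1* rose too. *Myb*, which keeps progenitors proliferating, fell from 319 and 291 to 181 and 159 CPM, and *Egr1*, an early growth response factor, from 28.9 and 26.6 to 15.8 and 11 CPM. *Kit*, the stem cell factor receptor, fell from 3.25 and 3.13 to 1.58 and 1.66 CPM, and *Zeb2* from 49.9 and 42.8 to 32.5 and 28.5 CPM. In *Cbfa2t3* KD *Kit* fell (2.02 and 2.08 to between 0.876 and 1.52 CPM) and no other gene of the 12 was called. On induction 2 of the 12 rose and 6 fell, as 2 and 4 of the 8 measured genes of the list without near sites did, against 12.4 and 14.8% of all genes. Of those with near sites, *Myb* was at 242 and 298 before and 96.9 and 38.3 CPM after, and *Myc* at 359 and 314 before and 157 and 65.6 CPM after. Of the 9 measured genes of the list without near sites, 2 rose and 2 fell in *Irf2bp2* KD.

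Survival and apoptosis genes had near sites at 7 of 28 genes, with 19 sites of up to 22.0-fold enrichment. In *Irf2bp2* KD 1 of the 7 was called higher and none lower, against 3 and 3 of the 20 measured genes of the list without near sites and 10.1 and 12.5% of all genes. This gene, *Bcl2l11*, which encodes the pro-apoptotic protein BIM, rose from 22.1 and 20.7 to 50 and 52 CPM (log2 1.25 ± 0.09, adjusted p = 8.29e-09). It was also the one called in *Cbfa2t3* KD, from 17.6 and 18.5 to between 28.5 and 33.2 CPM (0.75 ± 0.09, adjusted p = 9.80e-04). Its 3 near sites lie 64941 and 64297 bp upstream, in an intron of *Acoxl*, and 170955 bp downstream. On induction *Bcl2l11* (32.4 and 23.6 to 206 and 233 CPM) and *Bcl2* (227 and 223 to 697 and 609 CPM) rose. Of the JAK-STAT list, *Epor*, the erythropoietin receptor, with a near site of 15.4-fold enrichment 7 bp from its TSS, rose from 157 and 173 to 328 and 328 CPM in *Irf2bp2* KD and from 211 and 230 to between 308 and 347 CPM in *Cbfa2t3* KD. *Socs1*, a feedback inhibitor of cytokine signalling, was at 1.47 and 1.81 against 1.46 and 1.20 CPM in *Irf2bp2* KD.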

How the data were processed

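The site list and the RNA-Seq tables were deposited in processed form. Reads were mapped by the authors to mm9. For RNA-Seq the authors used Tophat2 and made raw read counts per RefSeq gene with rpkmforgenes, which were deposited as a count column per library and tested here. The deposited tables also hold RPKM values and the authors' log2 fold changes, p-values and adjusted p-values, which were not used. Binding sites were called by the authors with 3 programs against IgG. The deposited list gives each site a fold enrichment (a ratio of ChIP to IgG), an adjusted p-value, a peak centre and a class code, a score that separates ETO2-only, shared and IRF2BP2-only sites. Another 4 columns with read numbers were not used.

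The test was the quasi-likelihood test of edgeR 4.0.16 under R 4.3.3 (TMM, filterByExpr, glmQLFit and glmQLFTest, Benjamini-Hochberg adjustment over all genes of a table), each table on its own. Calls needed an adjusted p up to 0.05 and a log2 fold change past 0.5 in size. CPM are TMM-scaled. DESeq2 1.42.0, other scaling and filters, a replicate block and leaving out each library were alternatives. The scripts were tested on simulated data. Distances, motifs and Fisher's exact tests were computed in Python 3.11.15 with scipy 1.17.1. Gene positions came from GENCODE vM1 (mm9, 22380 protein-coding genes) and 87.6% of the genes tested in *Irf2bp2* KD were matched by symbol.

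The near sites and gene lists were chosen with earlier results of these data known. Named sites and genes followed fixed rules: the 10 most enriched near sites, 5 composite sites of 10-fold enrichment or more with the motif nearest to the centre, the most enriched near site of each listed gene, and, among nearest genes, the 8 largest rises and falls in *Irf2bp2* KD and the 5 largest in *Cbfa2t3* KD and on induction. The rises and falls were picked among genes that passed the test with all treated libraries on 1 side of all controls. Intervals cover counting error only. A result on 1 further gene is not reported here.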

Additional observations from a re-analysis of the deposited data

How the results depend on the processing

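Most of the alternatives left the results much the same (142 settings over 22 results), the TSS share and the composite motif among them. For site tests this means the same direction and side of the threshold. For gene counts and for the medians of fold enrichment and width it means a value close to the main one. In 16 settings over 6 results the gene counts moved, all in *Cbfa2t3* KD, in *Gfi1b* KD and on induction. Among the site results, several differences in motif shares between near and far sites were lost. With sites over 5 kb from a TSS alone, the odds ratio of the short GATA motif reversed to 0.981, those of the E-box, the RUNX motif and the SP/KLF motif were 1.08, 1.03 and 0.775 and no longer passed the test, and that of the AP-1 motif was 0.767 and passed it. With sites within 5 kb of a TSS alone they were 1.18 for the GATA motif, 1.23 for the E-box, 1.41 for RUNX, 0.837 for SP/KLF and 1.28 for AP-1, none of them past the threshold. With sites at or above the median fold enrichment they were 1.15, 1.17, 1.05 and 0.841, again not past it, and with near sites over 1 kb from every ETO2 site the GATA motif was at 1.13 (adjusted p = 0.0671). Fewer sites entered each of these tests. In *Gfi1b* KD, DESeq2 called 9 genes with near sites higher and 1 lower (42 and 5 of all genes), and edgeR without a filter on low counts 79 and 6 (388 and 23 of all genes).

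Leaving out each library in turn gave 180 to 212 higher and 111 to 127 lower genes with near sites in *Irf2bp2* KD, 34 to 84 and 27 to 60 in *Cbfa2t3* KD, 0 to 217 and 0 to 108 in *Gfi1b* KD and 109 to 167 and 100 to 204 on induction. The shares of all genes called in the same fits were 8.95 to 11.5% and 10.9 to 12.5%, 1.05 to 3.26% and 1.14 to 3.12%, 0 to 14.6% and 0 to 12.0%, and 5.94 to 11.8% and 6.52 to 16.1%. In *Kdm1a* KD, where the single control cannot be left out, leaving out either KD library gave 167 to 185 and 131 to 144 (15.4 to 16.2% and 12.3 to 12.7% of all genes), more than with both because 1 library then had to pass in place of both. Where 1 library was left in a group, it was assumed to vary like the other group. For the calls of the largest rises and falls, 332 settings kept direction and side and 21 lost the threshold (9 genes), with none reversed. Genes named only from the gene lists are not in this count.

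With 2 replicate numbers a group, pairing by number was not established. Correlations of deviations between same-numbered libraries were 0.0251 in *Irf2bp2* KD, 0.118 to 0.252 in *Cbfa2t3* KD, 0.00153 in *Gfi1b* KD and 0.196 on induction. With a replicate block, 190 genes with near sites were higher and 132 lower in *Irf2bp2* KD, 77 and 44 in *Cbfa2t3* KD, 0 and 0 in *Gfi1b* KD and 213 and 231 on induction, beside 10.2 and 12.7%, 2.67 and 2.37%, 0 and 0%, and 15.2 and 18.2% of all genes. Depth limits low genes: 3 counts are up to 0.302 CPM in the *Gfi1b* and induction libraries and up to 0.0676 CPM in the shRNA libraries.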
